A study of Mus musculus with 6 samples.

Results

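The adipokine genes Adipoq, Cfd, Rbp4, Nampt and Metrnl and the adiponectin receptor genes Adipor1, Adipor2 and Cdh13 were chosen by symbol, and 7 of the 8 were among the 13283 genes of the deposited table. Cdh13, which encodes T-cadherin, was not analysed here. RNA-seq was performed on differentiated cells of an immortalized mouse brown adipocyte line (BAT cells), with 3 libraries from MICT1 KO cells and 3 from control cells (labelled MICT1 Control, here Scr). MICT1 is a microprotein of brown fat. The MICT1 KO cells were pools, not clones, made with CRISPR-Cas9 and either of a pair of sgRNAs in BAT cells that stably express Cas9, and the Scr cells are the same Cas9 cells transduced with scrambled sgRNA, labelled WT. The sources used here do not tie the MICT1 KO libraries to one or the other sgRNA. All 6 cultures had gone through adipogenic differentiation and received 10 µM forskolin, an activator of adenylyl cyclase, on day 6 for 6 h, so that no unstimulated cells enter the comparison. The labels number the libraries as replicates without saying whether each came from its own differentiation, so the p-values measure the spread between these samples of 1 line, which may be technical. The targeted gene was not analysed here, and the KO labels could not be checked on it.

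Adipocytes secrete proteins that act on other tissues. Adiponectin, the product of Adipoq, is an abundant hormone of mature fat cells that circulates in multimers and raises insulin sensitivity. Its signalling receptors AdipoR1 and AdipoR2 are multi-pass membrane proteins of the PAQR family linked to AMP-activated kinase, PPARα and ceramide breakdown, while T-cadherin binds the larger multimers at the cell surface. Adipsin (Cfd) is the complement protease that cleaves factor B, RBP4 carries retinol in plasma, NAMPT is the rate-limiting enzyme of NAD salvage and is also found outside cells, and meteorin-like (Metrnl) is a hormone secreted by muscle and fat.

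Of the 7 genes, 4 fell at least 2-fold in MICT1 KO cells, namely Adipoq, Cfd, Rbp4 and Adipor2. Nampt fell by less than that, and Metrnl and Adipor1 rose, Metrnl to nearly double its Scr level. All 7 had an adjusted p under 0.05 by limma-trend (Benjamini-Hochberg over the 12507 genes tested) and values that did not overlap between the groups. That count has to be read against the whole table, in which 56.9% of the tested genes were called, 28.3% as lower and 28.5% as higher, and in which the groups did not overlap for 62% of the genes. Calls of at least 2-fold were less common, 5.76% lower and 7.99% higher. A gene was tested when its value reached 10 in at least 3 libraries, and Adipoq and Cfd met this through the Scr libraries, since 0 and 1 of their MICT1 KO values reached 10. For those genes the filter itself required a high Scr level, so their calls, as counted here, are by themselves no support for a fall. Among the secreted adipokines 4 of 5 were lower and 1 was higher, and of the receptors 1 was lower and 1 higher. The median log2 fold change over the secreted genes, with Adipoq and Cfd counted among them, was -3.70, beside -0.0053 over all genes tested. The secreted genes tested through both groups had -3.70 (Rbp4), -0.66 (Nampt) and 0.98 (Metrnl). The receptor median of -1.02 lies between opposite changes of -2.25 (Adipor2) and 0.20 (Adipor1) and describes neither.

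The sequences just before annotated starts of the 4 genes with the largest falls show what those start regions hold. Each is the 250 bases before a transcription start annotated in RefSeq (build GRCm38.p6), read 5′ to 3′ on the strand of the gene, and Rbp4 has a pair of annotated starts. Capitals mark matches, on either strand, to AGGTCA (a nuclear receptor element), its direct repeat with 1 base between the copies (core of the PPAR response element), TGACGTCA (cAMP response element), TGACG (a part of it), TTGCNNAA (C/EBP) or CANNTG (E-box). TGACG lies within TGACGTCA, and AGGTCA within the longer PPAR core. The Adipor2 window lies inside the span of that gene in GENCODE (119353150 to 119417704), so its RefSeq start is internal to that span.
Adipoq, chr16:23146286-23146535, plus strand: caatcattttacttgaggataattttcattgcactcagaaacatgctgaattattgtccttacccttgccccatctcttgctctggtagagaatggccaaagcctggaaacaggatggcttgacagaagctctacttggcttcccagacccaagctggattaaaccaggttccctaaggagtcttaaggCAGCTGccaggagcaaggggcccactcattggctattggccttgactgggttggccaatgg
Cfd, chr10:79890603-79890852, plus strand: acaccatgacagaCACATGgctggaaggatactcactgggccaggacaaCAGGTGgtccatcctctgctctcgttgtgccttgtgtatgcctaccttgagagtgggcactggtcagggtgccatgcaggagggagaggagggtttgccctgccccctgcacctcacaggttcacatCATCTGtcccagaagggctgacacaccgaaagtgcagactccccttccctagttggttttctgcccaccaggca
Rbp4, upstream start, chr19:38125322-38125571, minus strand: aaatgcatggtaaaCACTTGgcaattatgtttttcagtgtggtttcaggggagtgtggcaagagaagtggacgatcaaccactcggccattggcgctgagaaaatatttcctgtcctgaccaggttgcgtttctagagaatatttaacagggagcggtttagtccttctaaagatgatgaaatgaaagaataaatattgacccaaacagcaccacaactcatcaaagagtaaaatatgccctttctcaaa
Rbp4, downstream start, chr19:38124812-38125061, minus strand: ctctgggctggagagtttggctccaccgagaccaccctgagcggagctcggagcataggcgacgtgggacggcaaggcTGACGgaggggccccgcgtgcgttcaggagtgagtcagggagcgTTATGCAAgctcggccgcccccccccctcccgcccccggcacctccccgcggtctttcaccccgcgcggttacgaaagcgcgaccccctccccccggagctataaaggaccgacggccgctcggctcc
Adipor2, chr6:119388735-119388984, minus strand: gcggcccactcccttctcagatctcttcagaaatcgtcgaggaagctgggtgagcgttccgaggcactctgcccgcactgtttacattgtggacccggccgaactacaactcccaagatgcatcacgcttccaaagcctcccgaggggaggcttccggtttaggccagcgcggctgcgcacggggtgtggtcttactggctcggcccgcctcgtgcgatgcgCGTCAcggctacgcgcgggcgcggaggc

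The windows of Adipoq and Cfd held E-boxes and none of the other motifs. In the downstream Rbp4 window the capitals mark a TGACG match 172 bases and a C/EBP match 128 bases before the start, and in the Adipor2 window they mark TGACG on the opposite strand, 28 bases before the start. Among 32851 promoter windows of the same length, E-boxes were found in 66.2%, TGACG in 17.8%, AGGTCA in 14%, TTGCNNAA in 9.56%, TGACGTCA in 1.55% and the PPAR core in 0.0335%. Among the 13410 of them that belong to genes of the deposited table, the shares were 57.2%, 26.3%, 10.9%, 7.4%, 2.51% and 0.0298%, in the same order. None of the windows of the 7 genes held TGACGTCA or the PPAR core. G and C made up 48.8% of the Adipoq window, 57.6% of the Cfd window, 40.8% and 70.8% of the Rbp4 windows and 64.8% of the Adipor2 window.

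Values are given as deposited, as estimated reads of a gene over the size factor of its library. Summed over genes and multiplied back, they correspond to between 15441042 and 17918612 reads per library. Positions are from GENCODE on GRCm38, in which no other gene shared exonic bases with any of the 7.

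**Figure D1:**
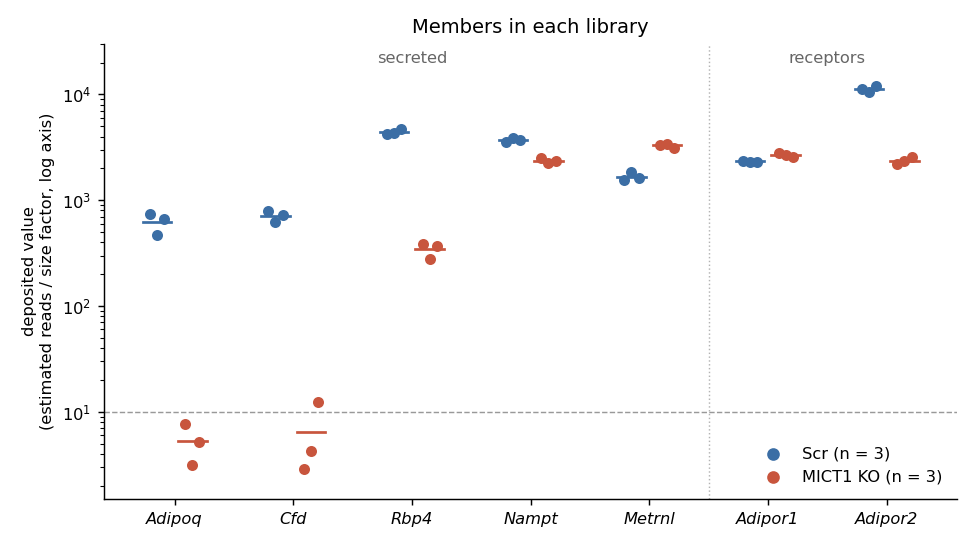
Deposited value (log axis) of each gene in each library, with 3 Scr points in blue and 3 MICT1 KO points in red per gene, a bar at each group mean and a dashed line at the filter value of 10. Adipoq, Cfd, Rbp4 and Adipor2 show the widest gaps, and all Adipoq values in MICT1 KO libraries lie under the line.

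Adipoq (ENSMUSG00000022878.5, chromosome 16, from 23146536 to 23158028) measured 733, 468 and 672 in the Scr libraries, against 7.63, 3.16 and 5.18 after MICT1 KO. Every MICT1 KO value was thus far below every Scr value. The group means were 624 ± 139 (SD, n = 3) and 5.32 ± 2.24 (SD, n = 3), 117-fold apart. On the log2(value + 1) scale, used throughout for fold changes, the difference was -6.66 (limma-trend adjusted p = 3.67e-14, SE 0.29), the fourth lowest of the 12507 tested. Divided by the step of each library, the MICT1 KO values were whole reads within 0.05, at 8, 3 and 5 reads. These 16 reads in all have a 95% exact Poisson interval from 9.14 to 26 reads, which covers counting error only. A pseudocount of 5 gave a log2 fold change of -5.93, so that the size of the fall depends on how such low values are treated. Its direction could not change with the pseudocount, since every MICT1 KO value lay below every Scr value.

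Cfd (ENSMUSG00000061780.6, chromosome 10, from 79890853 to 79892655) fell to a few reads as well. Scr cells gave 786, 616 and 718, and MICT1 KO cells 2.86, 4.21 and 12.4, the last being the only MICT1 KO value of either gene above 10. Means of 707 ± 85.5 (SD, n = 3) and 6.50 ± 5.18 (SD, n = 3) differed 109-fold, or by -6.77 on the log2 scale (limma-trend adjusted p = 3.41e-13, SE 0.33), the third lowest of all. The MICT1 KO values corresponded to 3, 4 and 12 reads, 19 in all (95% exact Poisson interval 11.4 to 29.7). Without KO replicate 3 the log2 fold change was -7.30. The SD of the log2 values within groups was 0.68 for Cfd and 0.44 for Adipoq. It had medians of 0.28 and 0.29 over 200 genes with a like mean log2 value over all 6 libraries. That mean lies well above the MICT1 KO values of Cfd and Adipoq. The medians therefore do not show what spread is typical at so few reads.

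Whether adiponectin and adipsin transcripts fell to the same extent was tested on the ratio of both genes within each library. The log2 ratio of Adipoq to Cfd lay between -0.40 and -0.097 in Scr and between -1.12 and 1.16 in MICT1 KO libraries. Its mean differed by 0.10 between the groups (two-sided exact permutation p = 0.9, Benjamini-Hochberg adjusted p = 0.9 over 3 ratios, n = 3 per group). Without KO replicate 1 the difference was -0.52. The smallest p that this test allows is 0.1, so it could not have passed 0.05 at any spread or depth. Whether both falls differed in size is therefore not decided here.

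Rbp4 (ENSMUSG00000024990.13, chromosome 19, from 38116629 to 38125281) was the secreted adipokine with the highest level in Scr cells. It reached 4253, 4364 and 4685 in Scr cells but 385, 280.3 and 367 in MICT1 KO cells. The groups stood 12.9-fold apart, at 4434 ± 224 (SD, n = 3) and 344 ± 56.0 (SD, n = 3). On the log2 scale the difference was -3.70 (limma-trend adjusted p = 6.81e-18, SE 0.092) and it ranked 51 of 12507 from the lowest. Unlike Adipoq and Cfd, Rbp4 kept between 266 and 404 estimated reads in each MICT1 KO library, so that its fall does not rest on values near the filter.

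Nampt (ENSMUSG00000020572.8, chromosome 12, from 32819545 to 32853349) fell to a smaller extent. Scr libraries held 3535, 3881 and 3731 and MICT1 KO libraries 2487, 2224 and 2345, without overlap. From 3716 ± 174 (SD, n = 3) it went to 2352 ± 132 (SD, n = 3), a level of 63.3% of Scr or -0.66 in log2 (limma-trend adjusted p = 7.20e-09, SE 0.060). By size this fall ranked 1372 of 12507.

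Metrnl (ENSMUSG00000039208.15, chromosome 11, from 121701544 to 121716306) was the secreted adipokine that rose. The Scr values of 1542, 1841 and 1637 all lay below the MICT1 KO values of 3353, 3419 and 3130.4. Means were 1673 ± 153 (SD, n = 3) and 3301 ± 151 (SD, n = 3), a 1.97-fold rise, 0.98 in log2 (limma-trend adjusted p = 7.87e-11, SE 0.067, 95% interval 0.84 to 1.12). It ranked 1073 of 12507 from the highest. Within libraries the log2 ratio of Nampt to Metrnl was between 1.08 and 1.20 in Scr and between -0.62 and -0.42 in MICT1 KO, a difference of -1.64 (two-sided exact permutation p = 0.1, adjusted p = 0.15 over 3 ratios), where 0.1 is the smallest p that 3 libraries against 3 allow.

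Between the adiponectin receptors the directions were opposite. Adipor2 (ENSMUSG00000030168.13, chromosome 6, from 119353150 to 119417704) stood at 11142, 10545 and 12047 in Scr cells, against 2215, 2342 and 2539.6 in MICT1 KO cells. Its mean fell 4.75-fold, from 11245 ± 756 (SD, n = 3) to 2365.5 ± 164 (SD, n = 3), a change of -2.25 in log2 (limma-trend adjusted p = 2.83e-17, SE 0.062). It ranked 168 of 12507 from the lowest. Adipor1 (ENSMUSG00000026457.14, chromosome 1, from 134415378 to 134433351) stood at 2338, 2313 and 2321 in Scr cells, against 2792, 2681 and 2547 in MICT1 KO cells. The Scr values were nearly identical and the lowest MICT1 KO value stood above them. The rise of Adipor1 was small, from 2324 ± 12.9 (SD, n = 3) to 2673.5 ± 123 (SD, n = 3), or 1.15-fold and 0.20 in log2 (limma-trend adjusted p = 0.00554, SE 0.058, 95% interval 0.081 to 0.32). By size this rise ranked only 4225 of 12507 from the highest. Over all settings tried it stayed between 0.17 and 0.24, with an adjusted p of at most 0.0238.

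The test of the difference between the receptors was made on their ratio. The log2 ratio of Adipor1 to Adipor2 lay between -2.38 and -2.19 in Scr and between 0.0041 and 0.33 in MICT1 KO libraries, a difference of 2.45 (two-sided exact permutation p = 0.1, the smallest possible, and adjusted p = 0.15). The groups did not overlap.

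**Figure D2:**
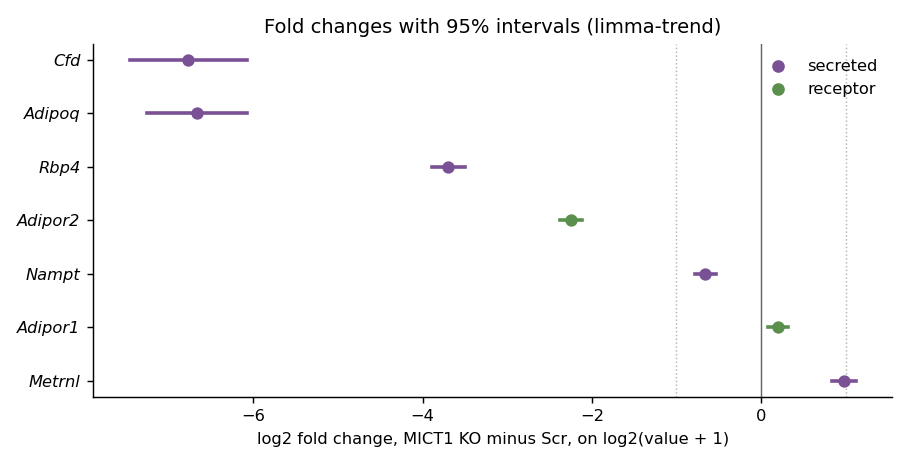
Log2 fold change (MICT1 KO minus Scr, on log2(value + 1)) of each gene as a point with its 95% interval from limma-trend, secreted genes in purple and receptors in green, with dotted lines at a 2-fold change. The fall of Cfd and Adipoq exceeds that of Rbp4 and Adipor2, Nampt lies between 0 and the dotted line, and Adipor1 and Metrnl are above 0.

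Levels of different genes can be set side by side only per length, and for this RPKM was computed from the deposited values with the exon length of each gene. That length joins the exons of all annotated transcripts of a gene (4 for Adipor1, 5 for Adipor2 and 3 for Nampt). It is not the length of the transcripts present in these cells, which was not determined. The order of different genes below depends on it, whereas the change of 1 gene between groups does not. In Scr cells Rbp4 was highest at 201.7 ± 9.69 RPKM (SD, n = 3), followed by Adipor2 at 114.9 ± 8.43 RPKM, Metrnl at 64.4 ± 4.90 RPKM, Cfd at 46.9 ± 6.38 RPKM, Nampt at 44.9 ± 1.40 RPKM, Adipor1 at 28.3 ± 0.60 RPKM and Adipoq at 27.7 ± 6.51 RPKM. Cfd and Nampt, and Adipor1 and Adipoq, were closer to each other than the spread between libraries. Adipoq had the lowest mean of the 7 per length in the Scr cells, overlapping Adipor1, and ranked between 1724 and 2786 among 13148 genes with a known length, whereas Rbp4 ranked between 140 and 150.

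In MICT1 KO cells the order differed. Metrnl came first at 127.5 ± 5.58 RPKM (SD, n = 3), ranking between 281 and 335 of 13148. Adipor1 at 32.6 ± 1.32 RPKM, Nampt at 28.5 ± 1.45 RPKM and Adipor2 at 24.2 ± 1.81 RPKM came next, then Rbp4 at 15.7 ± 2.51 RPKM. Cfd and Adipoq, at 0.43 ± 0.35 and 0.24 ± 0.098 RPKM, did not differ beyond their spread. Over the secreted genes together, the summed RPKM went from between 372 and 398 to between 168 and 177. Rbp4 made up between 50.9% and 53.5% of that sum in Scr and between 7.42% and 10% in MICT1 KO libraries, and Metrnl between 15.6% and 18.8% and between 72.3% and 76.7%. The share of Adipoq was between 5.48% and 8.53% in Scr and between 0.0814% and 0.19% in MICT1 KO libraries. Summed over both receptors, RPKM went from between 134 and 151 to between 56.3 and 57.3. Adipor2 was between 3.83 and 4.36 times Adipor1 in Scr and between 0.67 and 0.84 times Adipor1 in MICT1 KO libraries.

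**Figure D3:**
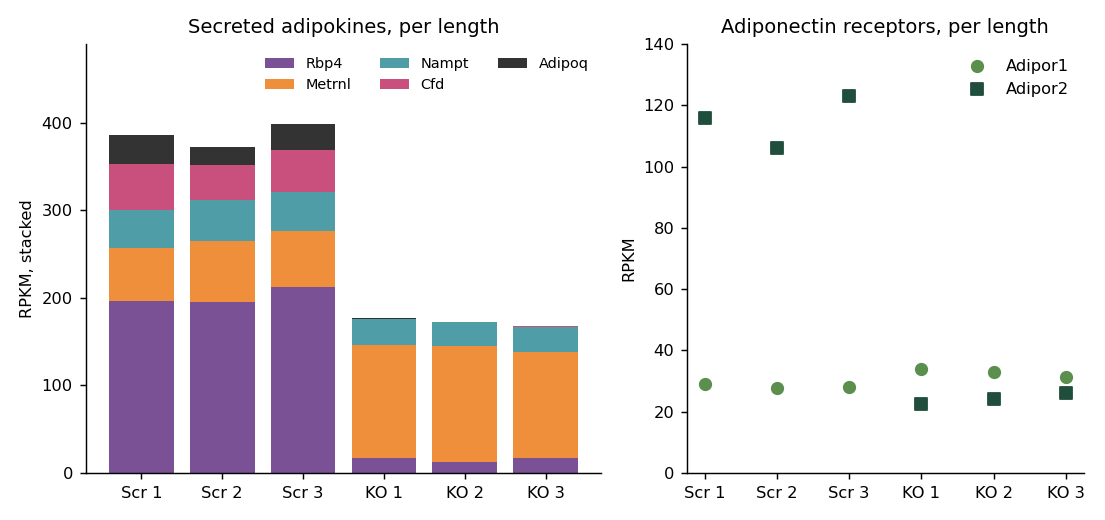
RPKM in each library. The left panel stacks the secreted genes from 0, and the right panel shows Adipor1 (circles) and Adipor2 (squares). Rbp4 fills the largest part of the Scr bars and Metrnl of the MICT1 KO bars, and Adipor2 lies above Adipor1 in all Scr libraries and below it in all MICT1 KO libraries.

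Cell identity markers did not all move in the same direction. Of 18 adipocyte markers 13 were in the table and tested, and all 13 were lower, 12 of them at least 2-fold, with a median log2 fold change of -3.40. Their summed value was between 144890.0 and 170766 in Scr and between 17297 and 24524 in MICT1 KO libraries. Pparg, the master regulator of adipogenesis, went from 3742 ± 467 (SD, n = 3) to 754 ± 66.7 (SD, n = 3), a change of -2.31 in log2 (limma-trend adjusted p = 1.69e-15, SE 0.082). Ucp1, which defines brown adipocytes, was low throughout, at 20.8, 24.1 and 30.5 in Scr cells against 1.91, 1.054 and 9.33 after MICT1 KO. It met the filter through the Scr libraries alone, so its place among the 13 lower markers is no support for a fall. Cidea, Dio2, Elovl3, Cox8b and Adig were not analysed here. Among preadipocyte and fibroblast markers 5 of 10 tested rose and 2 fell. The largest change in this list was the fall of Dlk1 (-3.47 in log2, limma-trend adjusted p = 1.52e-12). Pdgfra fell slightly (-0.19, limma-trend adjusted p = 0.0347), with values that overlapped between the groups. The summed value of the list was between 94607 and 105967 in Scr and between 168281 and 181965 in MICT1 KO libraries. Most of that gap was Fn1, so the higher sum does not describe Dlk1 or Pdgfra. For macrophage genes 4 of 10 were in the table, with sums of 267 to 384 and 516 to 638, where Cd14 rose (1.24, limma-trend adjusted p = 2.44e-06) and the other 3 did not pass. Of 8 endothelial genes only Cdh5 was in the table, which met the filter through the MICT1 KO libraries, at values of 5.93 to 12.1 in Scr and 25.9 to 33.4 in MICT1 KO libraries, and of 9 muscle genes 4 were, with 1 lower, 0 higher and sums between 383 and 409 and between 311 and 343. In bulk RNA, fewer adipocytes and less RNA of a gene per adipocyte cannot be told apart, and the part of these markers in the values of the adipokines and receptors was not tested.

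The genes closest in pattern to Cfd, the secreted gene with the largest fold change, by Euclidean distance between centred log2(value + 1) over the 6 libraries, were Kcnk3 (distance 0.76), G0s2 (1.58) and Adipoq itself (1.66). Kcnk3 encodes a potassium channel and went from a mean of 1389 to 20.9, while G0s2 encodes an inhibitor of the lipase ATGL and went from 4101 to 71.7. Closest to Adipor2 were Scp2 (distance 0.18), a sterol carrier and peroxisomal thiolase gene, Fitm2 (0.18), which acts in lipid droplet formation, and Agpat2 (0.19), an enzyme of triglyceride synthesis. Their log2 fold changes were -2.22, -2.38 and -2.39. With 2 groups of 3 libraries such distances mostly reflect the size of the group difference.

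Other adipokine genes moved in both directions. The counts of this and the following lists are to be read beside the 28.3% of all genes called lower and 28.5% called higher, or 5.76% and 7.99% at 2-fold or more. Of a list of 31, 23 were in the table and tested, 7 lower and 12 higher by limma-trend with an adjusted p under 0.05, and 5 lower and 8 higher at least 2-fold, with a median log2 fold change of 0.20. The largest falls were those of Retn, which encodes resistin (log2 fold change -4.48, from 3066 ± 236 to 139 ± 33.1), Rarres2, which encodes chemerin (-4.05, from 1658.5 ± 69.6 to 112 ± 68.6), and Agt, the angiotensinogen gene (-3.74, from 3681.5 ± 154 to 289 ± 101, all SD, n = 3). The largest rises were those of the cytokine gene Il6 (5.02, from 223 ± 51.2 to 7112 ± 640.3), the chemokine gene Ccl2 (3.40, from 498 ± 143 to 5127 ± 226) and Gdf15, a stress-induced hormone gene (2.76, from 93.4 ± 33.5 to 611 ± 80.6). Adjusted p for these 6 genes was at most 2.31e-10 in limma-trend.

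Adiponectin belongs with the C1q/TNF-related proteins, which share its globular domain. Of 16 such genes 8 were tested, 2 lower and 4 higher, with a median log2 fold change of 0.29. C1qtnf12, whose product is also called adipolin, fell by 1.67 on the log2 scale (limma-trend adjusted p = 1.45e-06, SE 0.22), and Emilin1, a matrix glycoprotein gene, fell by 0.23 (adjusted p = 0.0345). Cbln3, a cerebellin gene, rose by 2.23 (adjusted p = 1.97e-07), C1qtnf1 by 1.016 (adjusted p = 0.000771) and Emilin2 by 0.69 (adjusted p = 1.04e-09, all limma-trend). The call of Emilin1 was lost with upper quartile scaling (-0.19 in log2, limma-trend adjusted p = 0.0743), without Scr replicate 2 (-0.24, 0.0708), without Scr replicate 3 (-0.20, 0.108) and without KO replicate 3 (-0.16, 0.170).

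Genes for folding and secretion of adiponectin, which assembles in the endoplasmic reticulum with the help of disulfide and hydroxylysine enzymes, were called in both directions. Of 12 tested, 2 were lower and 6 higher, 0 of them 2-fold, and the median log2 fold change was 0.15. Over all genes 28.3% were lower and 28.5% higher. Gstk1, also known as DsbA-L and listed here for its role in adiponectin multimers, fell by 0.80 (limma-trend adjusted p = 0.00788). Plod1, a lysyl hydroxylase gene, fell by 0.40 (adjusted p = 1.35e-05 from limma-trend). The protein disulfide isomerase genes Pdia3 and P4hb rose by 0.63 (adjusted p = 6.64e-09) and 0.46 (adjusted p = 5.67e-07), and the lysyl hydroxylase gene Plod2 by 0.58 (adjusted p = 3.75e-08 from limma-trend). For the chaperones that retain or release adiponectin, Ero1a had a log2 fold change of -0.054 (adjusted p = 0.445) and Erp44 of 0.15 (adjusted p = 0.0763), and neither passed in limma-trend. Erp44 passed with upper quartile scaling (0.19, adjusted p = 0.0296).

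Downstream of the receptors, 24 of 25 signalling genes were tested, 14 lower and 5 higher, with a median log2 fold change of -0.22, where 28.3% of all genes tested were lower and 28.5% higher. Irs1, the insulin receptor substrate, had a log2 fold change of -2.02 (adjusted p = 2.52e-13), the AMP-activated kinase subunit gene Prkag2 of -1.62 (from 491 ± 48.0 to 159 ± 16.1, SD, n = 3, adjusted p = 7.60e-10) and Acacb, an acetyl-CoA carboxylase gene, of -0.998 (adjusted p = 0.000374, all limma-trend). Paqr3 and Paqr8, of the same family as the adiponectin receptors, rose by 1.14 (adjusted p = 0.000672) and 0.78 (adjusted p = 0.0386), and Asah1, the acid ceramidase gene, by 0.53 (adjusted p = 1.59e-06 from limma-trend). Paqr8 had values of 22.4 to 51.9 in Scr and 52.9 to 65.8 in MICT1 KO libraries, and its call was lost without Scr replicate 1 (0.76, adjusted p = 0.0790), Scr replicate 3 (0.50, 0.190), KO replicate 1 (0.70, 0.109) or KO replicate 2 (0.79, 0.0757).

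For receptors and partners of the other adipokines, 13 of 24 genes were in the table, 3 lower and 2 higher, with a median log2 fold change of -0.11. Among its genes of NAD metabolism, Nnmt, which methylates nicotinamide, fell by 2.02 (from 203 ± 6.46 to 49.4 ± 4.15, SD, n = 3, adjusted p = 1.16e-08) and Nmnat1, the nuclear enzyme of the step after Nampt, by 0.43 (adjusted p = 0.0231), whereas its paralogue Nmnat2 rose by 1.37 (adjusted p = 1.14e-06, all limma-trend). C3, whose convertase is formed with the product of Cfd, fell by 0.45 (adjusted p = 1.62e-07), and Cfb, the substrate of adipsin, was low in all libraries and did not pass (-1.16, adjusted p = 0.180). Nmnat3, Nmrk1, Naprt, Sirt3, Sirt6 and Sirt7, of the same metabolism, did not pass (adjusted p from 0.163 to 0.987 in limma-trend). Ccrl2, a chemerin-binding receptor gene and 1 of the 2 counted as higher, had values of 2.04 to 13.0 in Scr and 14.5 to 30.6 in MICT1 KO libraries. Since 1 Scr value reached 10, Ccrl2 was tested through its MICT1 KO values, and its call is no support for a rise. The call of Nmnat1 was lost without Scr replicate 2 (-0.36, adjusted p = 0.105), Scr replicate 3 (-0.42, 0.0568), KO replicate 1 (-0.39, 0.0594) or KO replicate 3 (-0.41, 0.0530).

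**Figure D4:**
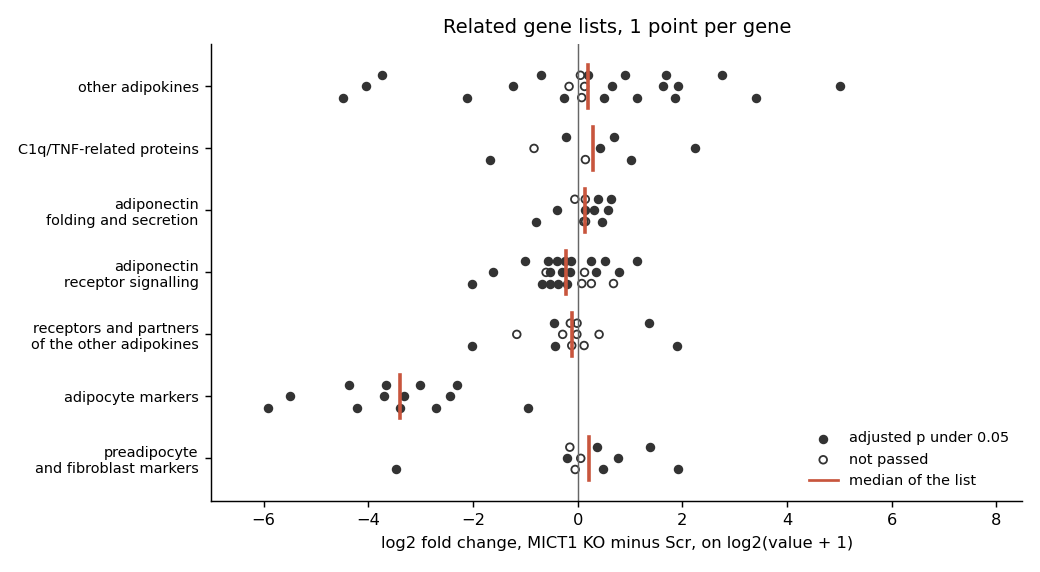
Log2 fold change (MICT1 KO minus Scr, on log2(value + 1)) of the tested genes of 7 related lists, 1 point per gene, filled where the adjusted p of limma-trend was under 0.05, with a red bar at the median of each list. All adipocyte markers lie below 0, while the other lists have points on both sides.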

How the data were processed

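RNA-seq libraries from 3 MICT1 KO and 3 Scr cultures were grouped by the sample labels. The authors deposited a table of normalized signal per gene (estimated reads divided by a size factor of the library). According to the study's methods, strand-specific total RNA libraries were aligned with Partek software to mm10, and the submitters' processing notes also name STAR and DESeq2, with no role. The counting model, annotation and use of strand are not given in the sources used here. Low values (under 20) were whole multiples of a library's step in 88.8% to 90.3% of cases (tolerance 0.01), and since the rest were not whole, no count test was run. All 13283 listed genes were above 0 in every library, so a gene lost altogether would not be seen.

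For testing, limma-trend (limma 3.58.1, R 4.3.3) was run on log2(value + 1) for genes reaching 10 in 3 or more libraries, with Benjamini-Hochberg adjustment over them all. The limma-trend fit was tested on simulated data with far fewer changed genes than were called here. That simulation does not show how the fit behaves with so many changes, and the other steps were not tested. The genes and lists were chosen with earlier results of these data known. From each related list, the 3 called genes with the largest rise and the 3 with the largest fall are named, with Cfb, Ero1a, Erp44, the NAD metabolism genes that did not pass and some markers added after their values were seen. RPKM used the exon lengths of GENCODE, joined over all transcripts of a gene and found for 98.98% of genes. Pearson correlations between libraries across tested genes were 0.987 to 0.990 within groups and 0.929 to 0.940 between groups. Alternatives were other scalings, pseudocounts and filters, limma-voom, the replicate number as a block and each library left out in turn.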

Additional observations from a re-analysis of the deposited data

How the results depend on the processing

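The 7 genes kept their direction and stayed under an adjusted p of 0.05 in 98 of 98 alternative fits (14 each, limma-trend or limma-voom). Since their values did not overlap between the groups, their direction could not change with the pseudocount, the filter or a library left out. For Adipoq and Cfd the calls under 0.05 carry the limit of the filter given above, except in the fit with no filter on low values. Adipoq lay between -6.92 and -5.93 on the log2 scale, Cfd between -7.30 and -6.03, Rbp4 between -3.78 and -3.56, Adipor2 between -2.30 and -2.20, Nampt between -0.70 and -0.62, Metrnl between 0.93 and 1.053 and Adipor1 between 0.17 and 0.24. Genes called in the whole table numbered between 6383 and 7157 over the alternatives. The difference in the log2 ratio of Adipoq to Cfd ranged from -0.52 to 0.62 when single libraries were left out, and was -0.52 without KO replicate 1, where its direction reversed. With the filter at 50 the endothelial list had 0 tested genes, so 0 were called in place of 1. Among genes that did not pass, the log2 fold change ranged from -0.093 to 0.011 for Ero1a (0.011 without KO replicate 3) and from -0.18 to 1.21 for Paqr7 (-0.18 without Scr replicate 3). With single libraries left out it also crossed 0 for Nmrk1 (-0.10 to 0.080), Naprt (-0.34 to 0.28) and Sirt3 (-0.30 to 0.0075), and with upper quartile scaling for Nmrk1 (0.023) and Naprt (0.024). Leaving out a library kept the tested genes as they were. With the replicate number as a block, 7055 genes were called, 6987 of them also without it, and all 7 of the genes reported here passed. Deviations of same-numbered libraries from their group means had correlations of -0.0236, -0.0155 and 0.0637, so the numbers did not pair the libraries, and the block changed none of the calls of the genes named in the text. The falls of Adipoq and Cfd are limited by depth, since 16 and 19 reads in all remained in MICT1 KO libraries.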

Other observations

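Some further genes of these lists, picked after their values were seen, fill in families of the genes above. Of the subunits of AMP-activated kinase, the catalytic subunit genes Prkaa1 (log2 fold change -0.69, adjusted p = 4.73e-08) and Prkaa2 (-0.53, adjusted p = 0.00801) were lower, as was Prkab2 (-0.31, adjusted p = 0.00324), while Prkab1 rose (0.25, adjusted p = 0.01) and Prkag1 did not pass (0.13, adjusted p = 0.177, all limma-trend). The adaptor gene Appl1, whose product binds both adiponectin receptors, had a log2 fold change of -0.20 (adjusted p = 0.0183) and its paralogue Appl2 of 0.079 (adjusted p = 0.607, limma-trend). Appl1 did not pass without Scr replicate 3 (-0.17, adjusted p = 0.0667 from limma-trend) or KO replicate 1 (-0.15, 0.0790). Metrn, the paralogue of Metrnl, went from 393 ± 22.3 to 556 ± 59.7 (SD, n = 3), or by 0.49 in log2 (adjusted p = 0.000361, limma-trend), the same direction as Metrnl. Of the other PAQR genes in the list, Paqr4 was lower (-0.52, adjusted p = 0.00369) and Paqr7, with values of few reads, did not pass (0.68, adjusted p = 0.372, limma-trend).

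Several secreted factors outside the largest changes rose in MICT1 KO libraries: Fstl1 went from 7484 ± 497 to 28154 ± 162, Lcn2 from 4340 ± 357 to 14042 ± 899, and Fbn1, whose product is cleaved to release asprosin, from 987 ± 188 to 3032 ± 364. Apln, which encodes apelin, went the other way, from 8854 ± 337 to 2056 ± 238 (all SD, n = 3, adjusted p at most 1.26e-11 in limma-trend).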
